A study of Arabidopsis thaliana with 12 samples.

Results

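The 40 genes described here are nuclear genes of Arabidopsis thaliana that encode the light-harvesting antenna proteins LHCA and LHCB, the small subunit of Rubisco (RBCS) and the PSA and PSB subunits of photosystem I (PSI) and photosystem II (PSII). They were listed by gene identifier and function, with earlier results of these data known, and all 40 were among the 26925 genes listed in each of the 12 expression tables. By role they comprise 9 genes of the trimeric antenna of PSII (LHCB1.1 to LHCB1.5, LHCB2.1 to LHCB2.3 and LHCB3), 5 genes of the minor PSII antenna, 4 of the PSI antenna, 4 RBCS genes, 12 PSI subunit genes and 6 genes of PSII subunits on the oxygen-evolving side. The antenna proteins bind chlorophyll and pass light energy to the photosystems, which drive electron transport across the thylakoid membrane. Rubisco, built of plastid-encoded large and nuclear-encoded small subunits, fixes carbon dioxide in the Calvin cycle. In a developing silique both the fruit wall and the embryo are green, and the embryo loses its green colour later, as the seed matures.

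The libraries come from hand-dissected siliques of wild-type Col-0 and of the mutant lhp1-6. The mutated gene encodes LIKE HETEROCHROMATIN PROTEIN 1 (LHP1), a chromodomain protein that binds the Polycomb mark on histone H3. Bulk RNA-seq was made of the seeds and of the remaining fruit, in 4 groups (Col-0 fruit, lhp1-6 fruit, Col-0 seed and lhp1-6 seed) of 3 libraries each. All plants were kept at 22 °C until bolting and then moved to days of 16 °C and nights of 14 °C, and siliques were opened 14 to 15 days after pollination, when the embryos had reached the bent-cotyledon stage. A library pools 3 to 5 siliques, and the labels do not state which plants were pooled, so the p-values rest on the spread among pools, which may be technical. By its title, the series is about adaptation across generations to the climate in which the mother grew. Values are TPM, a transcript level scaled to transcript length and to the total of the library, and can be compared between genes within a library. Changes are differences of log2(TPM + 1) with their standard error (SE), tested with limma over the 19946 genes that reached 1 TPM in at least 3 libraries, with p-values adjusted by the Benjamini-Hochberg method and called under 0.05. All 40 genes passed that filter.

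LHP1 (AT5G17690) was listed at 15.3 to 18.0 TPM in fruit of Col-0 and 20.8 to 23.7 TPM in Col-0 seed, against 0.699 to 0.858 TPM in fruit of lhp1-6 and 0.310 to 0.382 TPM in lhp1-6 seed. The dissection was checked with marker lists. The summed TPM of 11 seed storage and oil body genes was 8262 to 14841 in Col-0 seed and 40635 to 112144 in lhp1-6 seed, against 339 to 3244 in Col-0 fruit and 7076 to 10699.5 in lhp1-6 fruit, and none of the 11 was at 0 in any library. Col-0 fruit replicate 1 held the 3244 TPM, and its estimated share of seed RNA was 23.3%, against 3.65% to 10.97% in the other 5 fruit libraries. The summed TPM of 6 guard cell genes was 95 to 143 in Col-0 fruit and 108 to 153 in lhp1-6 fruit, and 5.2 to 11.4 and 29 to 36.6 in the seed groups, where FAMA, HT1 and AT1G22690 were each at 0 in 1 library. Most of the guard cell sum in seed was MYB60. The summed TPM of 5 vasculature genes was 553 to 793 in Col-0 fruit, 588 to 698 in lhp1-6 fruit, 97.7 to 129 in Col-0 seed and 149.8 to 209 in lhp1-6 seed, most of it SUC2, with SEOR1 at 0 in 5 seed libraries and XCP1 in 1.

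The 40 genes took a large share of the transcripts of both tissues, and a larger one in fruit. Their summed level was 6.72 to 8.26% of all TPM in fruit of Col-0 and 5.57 to 8.5% in lhp1-6 fruit, and 3.2 to 3.98% in Col-0 seed and 4.04 to 4.26% in lhp1-6 seed. Among the 100 genes with the highest mean TPM of each group were 26 of the 40 in Col-0 fruit, 24 in lhp1-6 fruit and 16 in each seed group. LHCB1.5 had the highest mean TPM of all listed genes in Col-0 fruit, and LHCB1.3 was the fifth in Col-0 fruit and in Col-0 seed. In each of the 12 libraries 35 of the genes were listed at 100 TPM or more, the others being LHCB1.4, LHCB2.3, RBCS1B, RBCS2B and RBCS3B. The trimeric PSII antenna took the largest part, 2.08 to 3.03% of all TPM in fruit of Col-0 and 1.29 to 1.6% in Col-0 seed. The PSI subunits followed with 1.26 to 1.58% and 0.561 to 0.737%, and the minor PSII antenna took the least in Col-0 fruit, 0.632 to 0.774%, beside 0.355 to 0.421% in Col-0 seed.

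**Figure D1:**
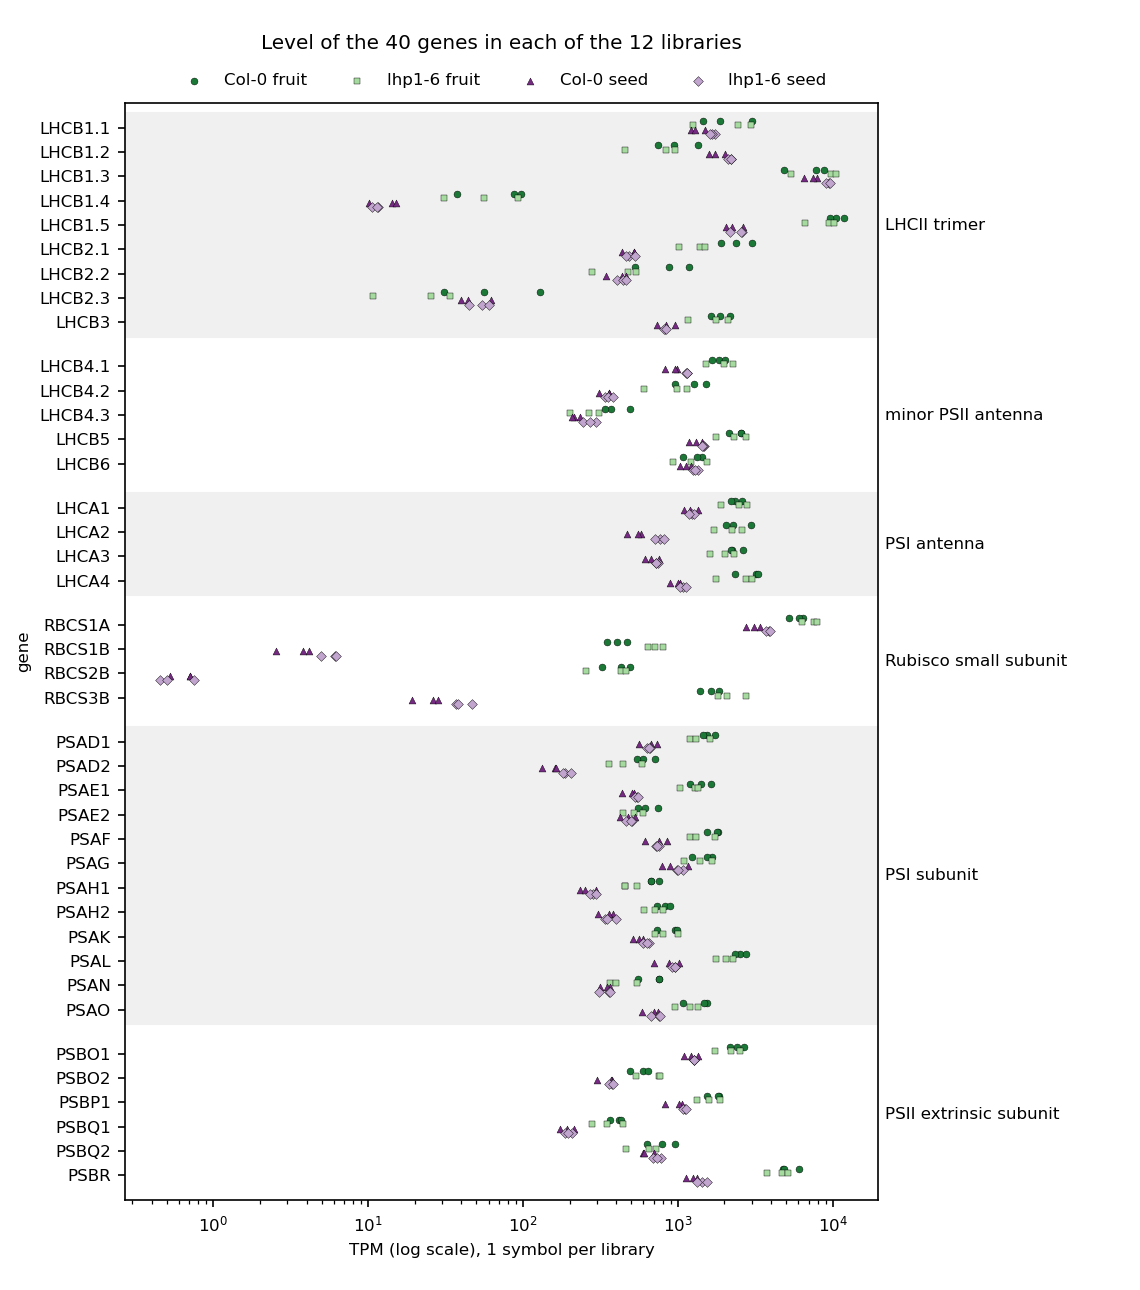
TPM of each of the 40 genes in each of the 12 libraries, on a log axis, grouped by role; each symbol is 1 library and its colour and shape give the group. Most genes lie between 100 TPM and the highest values with the seed symbols to the left of the fruit symbols, LHCB1.2 has its seed symbols on the right, and RBCS1B, RBCS2B and RBCS3B lie far to the left in seed.

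Several of the genes are near-identical copies, which matters for how far their levels can be told apart. Of all 100-base windows of the coding sequences, the length of the reads, 9 of the 40 genes share any with another of the 40. LHCB1.1, LHCB1.2 and LHCB1.3 lie side by side on chromosome 1, LHCB1.4 and LHCB1.5 on chromosome 2, and each of the 5 shares 2.41% to 7.66% of its windows. LHCB2.1 and LHCB2.2 share 8.89% and 10.9% of theirs. RBCS1B, RBCS2B and RBCS3B lie in a row on chromosome 5 and RBCS1A on chromosome 1. RBCS1B and RBCS3B share 29.3% and 28.4% of their windows with each other, while RBCS1A and RBCS2B share none. The windows were read from the TAIR10.1 reference, and how the counting treated a read that fits more than 1 gene is not given in the sources used here. The levels of RBCS1B and RBCS3B are the least certain of these. The first 90 coding bases of the 4 RBCS genes (TAIR10.1), which start the chloroplast transit peptide, are shown because these genes parted most between the tissues; capitals mark bases that differ from RBCS1A.

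RBCS1A: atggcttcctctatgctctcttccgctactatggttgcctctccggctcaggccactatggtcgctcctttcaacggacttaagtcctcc
RBCS1B: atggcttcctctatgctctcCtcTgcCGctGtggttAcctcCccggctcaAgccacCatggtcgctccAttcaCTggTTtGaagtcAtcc
RBCS2B: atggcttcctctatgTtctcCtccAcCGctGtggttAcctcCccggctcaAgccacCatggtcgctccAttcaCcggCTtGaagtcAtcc
RBCS3B: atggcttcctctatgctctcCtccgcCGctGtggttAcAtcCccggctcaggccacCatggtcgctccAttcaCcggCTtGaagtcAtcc

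RBCS1B and RBCS2B differ from RBCS1A at 16 of these bases and RBCS3B at 14. Over the whole coding sequence RBCS1A was 90.4% to 90.6% identical to the other 3, which were 96.7% to 97.3% identical to each other (aligned bases). RBCS1A lies at chr1:25048158-25049667, RBCS1B at chr5:15383167-15385320, RBCS2B at chr5:15380907-15382071 and RBCS3B at chr5:15376988-15378642, all on the minus strand of TAIR10.1.

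The LHCB1 copies differ more in front of their genes than within them. LHCB1.1, LHCB1.2 and LHCB1.3 were 95.7% to 96.4% identical over their 804 coding bases, and all 5 LHCB1 genes are annotated with a single exon. Between any pair of the 5 the identity of aligned coding bases was 87.4% or more. The 250 bases before the annotated gene start were 43.9% to 55.4% identical between any pair of the 5. Gaps count as differences in these promoter values and are left out of the coding values. Those of LHCB1.2, LHCB1.3 and LHCB1.5 are shown because these 3 copies differed in how they stood in seed against fruit, and that of RBCS2B because its seed level was the lowest of the 40. They run 5′ to 3′ on the gene's own strand (TAIR10.1: LHCB1.2 chr1:10473503-10473752, minus; LHCB1.3 chr1:10477635-10477884, plus; LHCB1.5 chr2:14523569-14523818, minus; RBCS2B chr5:15382072-15382321, minus). Capitals mark the CCAAT box (CCAAT or ATTGG), the G-box (CACGTG) and the I-box (GATAAG or CTTATC).

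LHCB1.2: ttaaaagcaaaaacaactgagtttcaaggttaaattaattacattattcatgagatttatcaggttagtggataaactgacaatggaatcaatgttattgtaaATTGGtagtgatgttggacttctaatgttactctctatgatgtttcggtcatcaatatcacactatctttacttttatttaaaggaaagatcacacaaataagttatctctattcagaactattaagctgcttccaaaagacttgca
LHCB1.3: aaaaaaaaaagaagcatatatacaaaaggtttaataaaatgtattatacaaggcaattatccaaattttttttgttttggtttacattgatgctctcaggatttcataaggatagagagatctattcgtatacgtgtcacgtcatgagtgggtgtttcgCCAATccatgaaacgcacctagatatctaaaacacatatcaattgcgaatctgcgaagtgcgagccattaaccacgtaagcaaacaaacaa
LHCB1.5: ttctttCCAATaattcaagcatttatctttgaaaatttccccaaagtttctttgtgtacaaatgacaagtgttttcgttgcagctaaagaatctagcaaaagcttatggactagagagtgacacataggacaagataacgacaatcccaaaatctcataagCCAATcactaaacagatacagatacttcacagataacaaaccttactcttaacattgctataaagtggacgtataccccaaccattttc
RBCS2B: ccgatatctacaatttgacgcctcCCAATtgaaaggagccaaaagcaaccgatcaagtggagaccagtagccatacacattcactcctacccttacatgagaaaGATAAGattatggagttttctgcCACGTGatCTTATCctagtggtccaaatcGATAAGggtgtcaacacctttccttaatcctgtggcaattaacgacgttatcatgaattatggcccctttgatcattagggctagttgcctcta

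The CCAAT box was found in all 9 trimeric PSII antenna genes, in 4 of 5 minor PSII antenna genes and in 4 of 4 PSI antenna genes, and in 27 of the 40 in all, 67.5%, against 46.0% of all 27443 promoters of that length. A G-box was found in 9 of the 40, 22.5%, against 6.49% of all promoters, and an I-box in 10, 25.0%, against 12.3%. RBCS2B, PSAH2 and PSBQ2 each held all 3 of these motifs. The G-box and I-box are known from the light-responsive promoters of RBCS and LHCB genes. Counted before the innermost annotated transcript start instead, the G-box stood in 32.5% of the 40 and 6.68% of all promoters, the I-box in 42.5% and 12.6%, with an I-box in each of the 4 RBCS genes. The evening element (AAAATATCT or AGATATTTT) was in none of the 40, against 2.36% of all promoters. The motif AAAAATCT or AGATTTTT, bound by the clock protein CCA1, was in 12.5% against 6.69%, and AGATTCT or AGAATCT, searched as a candidate GLK motif, in 12.5% against 6.22%. Both strands were searched and the motifs may overlap each other; these counts describe letters in a window and were not tested.

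In seed most of the genes stood lower than in fruit in both genotypes. In Col-0, 34 of the 40 fell and 1 rose, against a background of 37.7% of all tested genes lower and 45.3% higher in seed. In lhp1-6, 29 fell and 2 rose, with a background of 41.1% lower and 39.3% higher. The 29 genes that fell in lhp1-6 also fell in Col-0. In Col-0 all seed libraries lay below all fruit libraries for 34 of the genes and above them for 1, and in lhp1-6 for 31 and 2. The background of such groups that do not overlap was 39% lower and 47% higher in Col-0 and 42.4% lower and 40.8% higher in lhp1-6. The median change was -1.03 in Col-0, against -0.89 in lhp1-6, where the median of all tested genes was 0.12 and -0.02. In bulk RNA, fewer green cells and less of these transcripts per cell cannot be told apart. The fall also moves with the make-up of the tissue, since guard cell, vasculature and seed marker sums differ between fruit and seed as given above; their part in the result was not tested. After subtraction of the seed RNA estimated in each fruit library the counts did not move, with 34 falls and 1 rise in Col-0 and 29 falls and 2 rises in lhp1-6. The median change became -1.13 in Col-0 and -0.96 in lhp1-6. Taking part of the seed profile off fruit widens any difference between the tissues by construction. The unmoved counts are therefore no check on seed RNA in fruit.

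**Figure D2:**
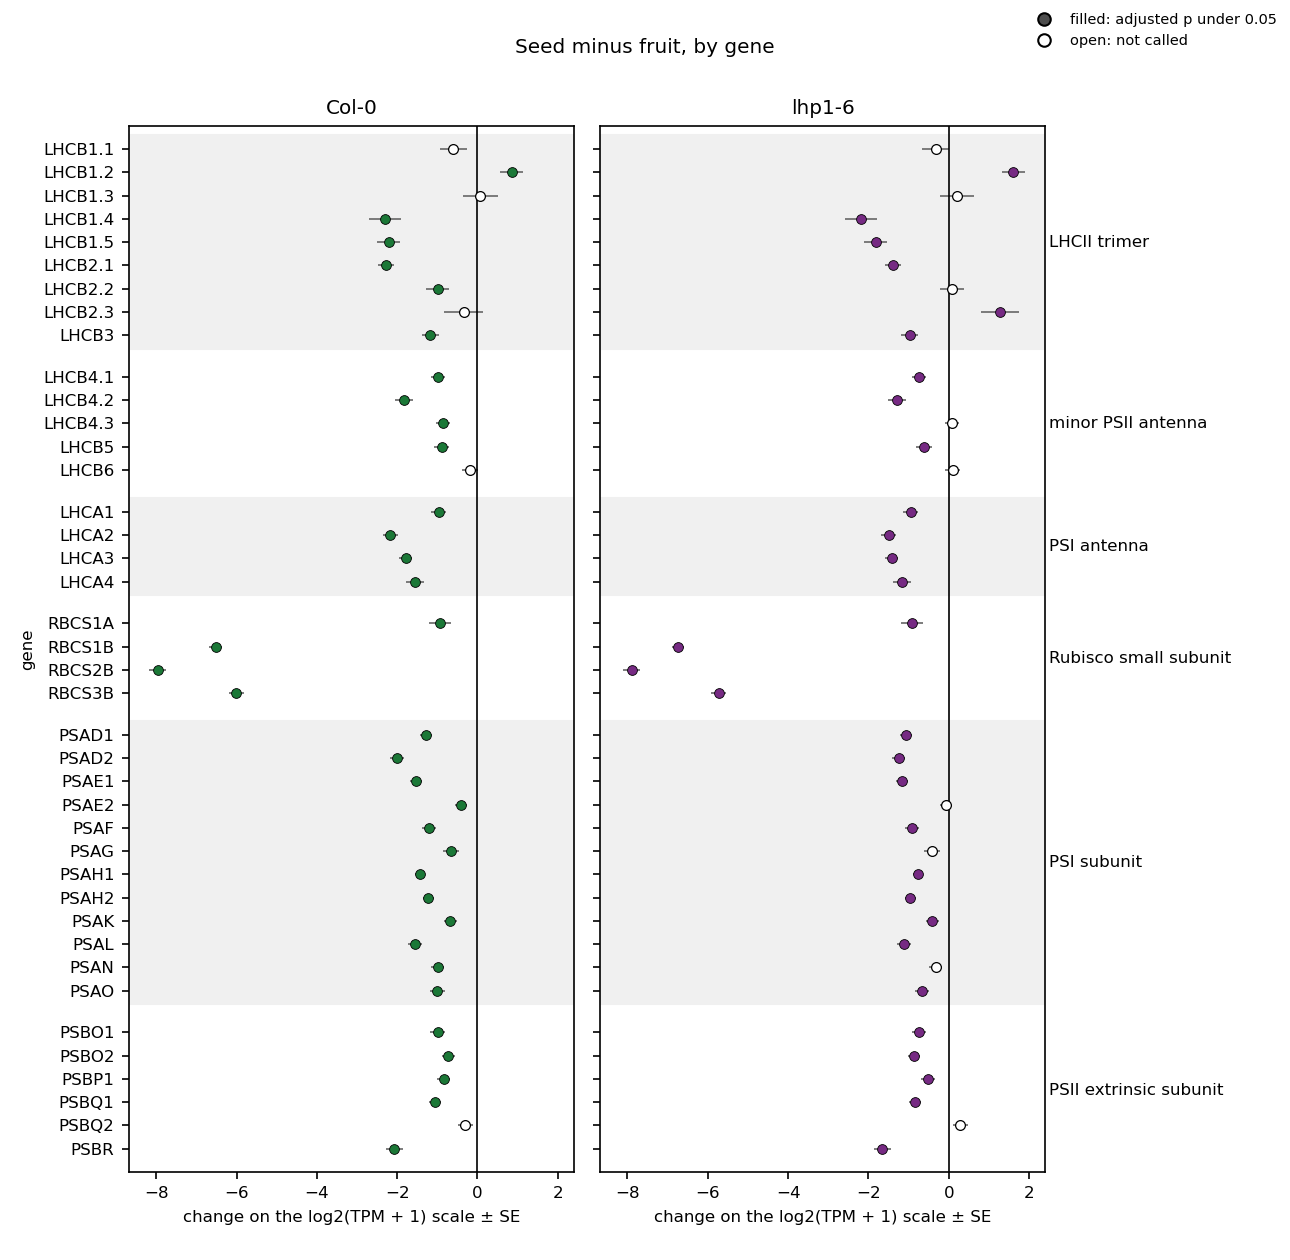
Change from fruit to seed of each of the 40 genes in Col-0 (left) and lhp1-6 (right), on the log2(TPM + 1) scale, with the SE of the fit over 3 libraries a group; filled points have an adjusted p under 0.05. Most points lie to the left of 0, RBCS1B, RBCS2B and RBCS3B at -5.73 or lower, and LHCB1.2 lies to the right in both genotypes.

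The trimeric antenna of PSII was the role with calls in both directions, 5 falls and 1 rise in Col-0 and 4 falls and 2 rises in lhp1-6. LHCB1.5 (AT2G34420), the most abundant copy in Col-0 fruit, stood at 10472, 9627 and 11763 TPM in fruit of Col-0 and at 2619, 2039 and 2236 TPM in Col-0 seed. Every seed library lay far below every fruit library, giving -2.21 (SE 0.29, adjusted p = 3.38e-05), and in lhp1-6 the change was -1.82 (SE 0.29, adjusted p = 0.000163). LHCB1.3 (AT1G29930), the copy with the highest mean over all libraries, was at 8843, 4821 and 7779 TPM in fruit of Col-0 and 7920.4, 6524 and 7473 TPM in Col-0 seed. The groups overlapped and the change of 0.07 (SE 0.43, adjusted p = 0.879) was not called. It was not called in lhp1-6 either, at 0.20 (SE 0.43, adjusted p = 0.673), with 5344, 9706 and 10482 TPM in fruit and 9532, 9023 and 9656 TPM in seed.

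LHCB1.2 (AT1G29910) went the other way. It stood at 1341, 745 and 947 TPM in fruit of Col-0 and at 2022, 1578 and 1732 TPM in Col-0 seed, so that every seed library was above every fruit library. The rise was 0.85 (SE 0.28, adjusted p = 0.0164) in Col-0, and the call was lost without Col-0 fruit replicate 2 (adjusted p = 0.0702) or Col-0 seed replicate 1 (adjusted p = 0.0557). In lhp1-6 it stood at 454, 958 and 835 TPM in fruit and 2201, 2114 and 2210.2 TPM in seed, again without overlap, a rise of 1.61 (SE 0.28, adjusted p = 0.000321). LHCB1.1 (AT1G29920), its neighbour on the chromosome, was at 3016, 1453 and 1878 TPM in fruit of Col-0 and 1499, 1209.6 and 1284 TPM in Col-0 seed, and its change of -0.61 (SE 0.33, adjusted p = 0.113) was not called. LHCB1.4 (AT2G34430), the weakest copy, fell from 88.1, 37.4 and 96.8 TPM to 14.2, 10.14 and 15.2 TPM in Col-0, a change of -2.31 (SE 0.40, adjusted p = 0.000241).

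The 3 LHCB2 genes also parted. LHCB2.1 (AT2G05100) fell in Col-0 from 3035, 1898 and 2368 TPM in fruit to 524, 436 and 524 TPM in seed, with -2.28 (SE 0.20, adjusted p = 1.6e-06), and in lhp1-6 by 1.39 on the log2 scale (adjusted p = 6.36e-05). LHCB2.2 (AT2G05070) fell in Col-0, with -0.99 (SE 0.29, adjusted p = 0.0086), and in lhp1-6 it was at 280.2, 476 and 537 TPM in fruit and 406, 442 and 465 TPM in seed, overlapping groups with a change of 0.07 (SE 0.29, adjusted p = 0.824). LHCB2.3 (AT3G27690) was the weakest of the family, at 10.8, 25.6 and 33.9 TPM in fruit of lhp1-6 and 44.6, 54 and 60.7 TPM in lhp1-6 seed. Its 3 lhp1-6 seed libraries lay above the 3 fruit libraries, a rise of 1.27 (SE 0.48, adjusted p = 0.0302). The call was lost without lhp1-6 fruit replicate 1 (adjusted p = 0.133), lhp1-6 seed replicate 2 (adjusted p = 0.0674) or lhp1-6 seed replicate 3 (adjusted p = 0.0811). In Col-0, where fruit replicate 1 held 128 TPM and the others 30.9 and 55.6 TPM, its change was -0.34 (SE 0.48, adjusted p = 0.524). LHCB3 (AT5G54270), the third protein of the trimers, fell in both genotypes, by 1.17 in Col-0 (adjusted p = 0.000382) and by 0.98 in lhp1-6 (adjusted p = 0.00148), on the log2 scale.

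The minor antenna proteins link the trimers to the PSII core. LHCB5 (AT4G10340), the most abundant, stood at 2576, 2144 and 2553 TPM in fruit of Col-0 and 1425, 1175 and 1316 TPM in Col-0 seed. The groups did not overlap and the change was -0.89 (SE 0.19, adjusted p = 0.00125). In lhp1-6 it fell by 0.62 on the log2 scale (adjusted p = 0.0125), a call lost without lhp1-6 fruit replicate 3 (adjusted p = 0.0574). LHCB4.2 (AT3G08940) had the largest fall of the role, -1.83 (SE 0.23, adjusted p = 2.17e-05) in Col-0, and LHCB4.1 (AT5G01530) fell by 0.99 (adjusted p = 0.000276). LHCB6 (AT1G15820) was the exception, at 1430.5, 1085 and 1332 TPM in fruit of Col-0 and 1208, 1028 and 1129.7 TPM in Col-0 seed. Its groups overlapped in both genotypes, with changes of -0.19 (SE 0.19, adjusted p = 0.376) in Col-0 and 0.10 (SE 0.19, adjusted p = 0.631) in lhp1-6. LHCB4.3 (AT2G40100) fell in Col-0, with -0.85 (SE 0.17, adjusted p = 0.000676), and in lhp1-6 its change was 0.08 (SE 0.17, adjusted p = 0.686).

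All 4 genes of the PSI antenna fell in both genotypes. LHCA4 (AT3G47470), the most abundant, went from 3184, 2332 and 3273 TPM in fruit of Col-0 to 1038, 893 and 1008 TPM in Col-0 seed. Seed and fruit libraries stood clear of each other, with -1.57 (SE 0.22, adjusted p = 5.8e-05) in Col-0 and -1.17 (SE 0.22, adjusted p = 0.000552) in lhp1-6. LHCA2 (AT3G61470) had the largest fall, -2.17 (SE 0.20, adjusted p = 2.11e-06) in Col-0, a level in seed at 22.0% of that in fruit. LHCA1 (AT3G54890) had the smallest, -0.97 (SE 0.18, adjusted p = 0.000506), at 51.2% of the fruit level.

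The RBCS genes held the largest falls of all 40. RBCS2B (AT5G38420) stood at 492, 429 and 322 TPM in fruit of Col-0 and at 0.707, 0.525 and 0.706 TPM in Col-0 seed. In lhp1-6 it stood at 254, 432 and 463 TPM in fruit and 0.45, 0.749 and 0.499 TPM in seed. All 6 seed libraries were under 1 TPM and all 6 fruit libraries above 254 TPM, a change of -7.96 (SE 0.21, adjusted p = 2.03e-10) in Col-0 and -7.89 (SE 0.21, adjusted p = 2.19e-10) in lhp1-6. Since the seed values lie below the added 1, the scale understates these changes; the ratio of the means was 641 in Col-0 and 677 in lhp1-6.

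RBCS1B (AT5G38430) fell from 405, 469 and 351 TPM in fruit of Col-0 to 3.81, 2.53 and 4.12 TPM in Col-0 seed, a change of -6.52 (SE 0.15, adjusted p = 9.73e-11), and in lhp1-6 by 6.74 on the log2 scale (adjusted p = 1.01e-10). RBCS3B (AT5G38410) fell from 1855, 1649 and 1393 TPM to 26.1, 19.1 and 28.4 TPM in Col-0, a change of -6.01 (SE 0.19, adjusted p = 5.25e-10), and in lhp1-6 by 5.73 (adjusted p = 7.39e-10). RBCS1A (AT1G67090) behaved otherwise. It stood at 6392, 6046 and 5203 TPM in fruit of Col-0 and 3401, 2742 and 3109 TPM in Col-0 seed, no overlap but a far smaller change of -0.93 (SE 0.27, adjusted p = 0.00737), and of -0.91 (SE 0.27, adjusted p = 0.0087) in lhp1-6. With no filter on low values these 2 calls were lost, with an adjusted p of 0.0897 and 0.0992.

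Within a library, the share of a copy in its family does not depend on how the library was scaled. RBCS1A made up 69.9, 70.4 and 71.6% of the summed RBCS TPM in fruit of Col-0 and 70.2, 70.2 and 66.2% in lhp1-6 fruit. In Col-0 seed it made up 99.1, 99.2 and 98.9%, and in lhp1-6 seed 98.9, 98.6 and 98.9%. The 3 copies on chromosome 5 together held 28.4% to 33.8% of the family in any fruit library and 0.801% to 1.39% in any seed library.

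In the LHCB1 family LHCB1.5 led in Col-0 fruit, with 44.1, 57.7 and 52.4%, and LHCB1.3 in seed, with 56.3, 57.4 and 58.7% in Col-0 against 59.3, 60.3 and 60.2% in lhp1-6. LHCB1.5 took 18.6, 18 and 17.5% in Col-0 seed. LHCB1.2 held 5.64, 4.46 and 4.22% in Col-0 fruit and 14.4, 13.9 and 13.6% in Col-0 seed, and the seed values of both genotypes lay between 13.6% and 14.4%. LHCB1.1 was the copy whose share overlapped between the tissues, between 8.36% and 12.7% in all 12 libraries. Across the 9 families with several members, 23 of 25 shares did not overlap between fruit and seed in Col-0 and 20 of 25 in lhp1-6; shares of 1 family are not independent of each other. LHCB2.1 led its family in all groups, with 69.9, 77.3 and 71.7% in Col-0 fruit and 52.2, 53.2 and 50% in Col-0 seed, and PSAE1 (AT4G28750) went from 69.7, 68.5 and 68.6% of PSAE to 49.6, 50.6 and 51.6%.

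**Figure D3:**
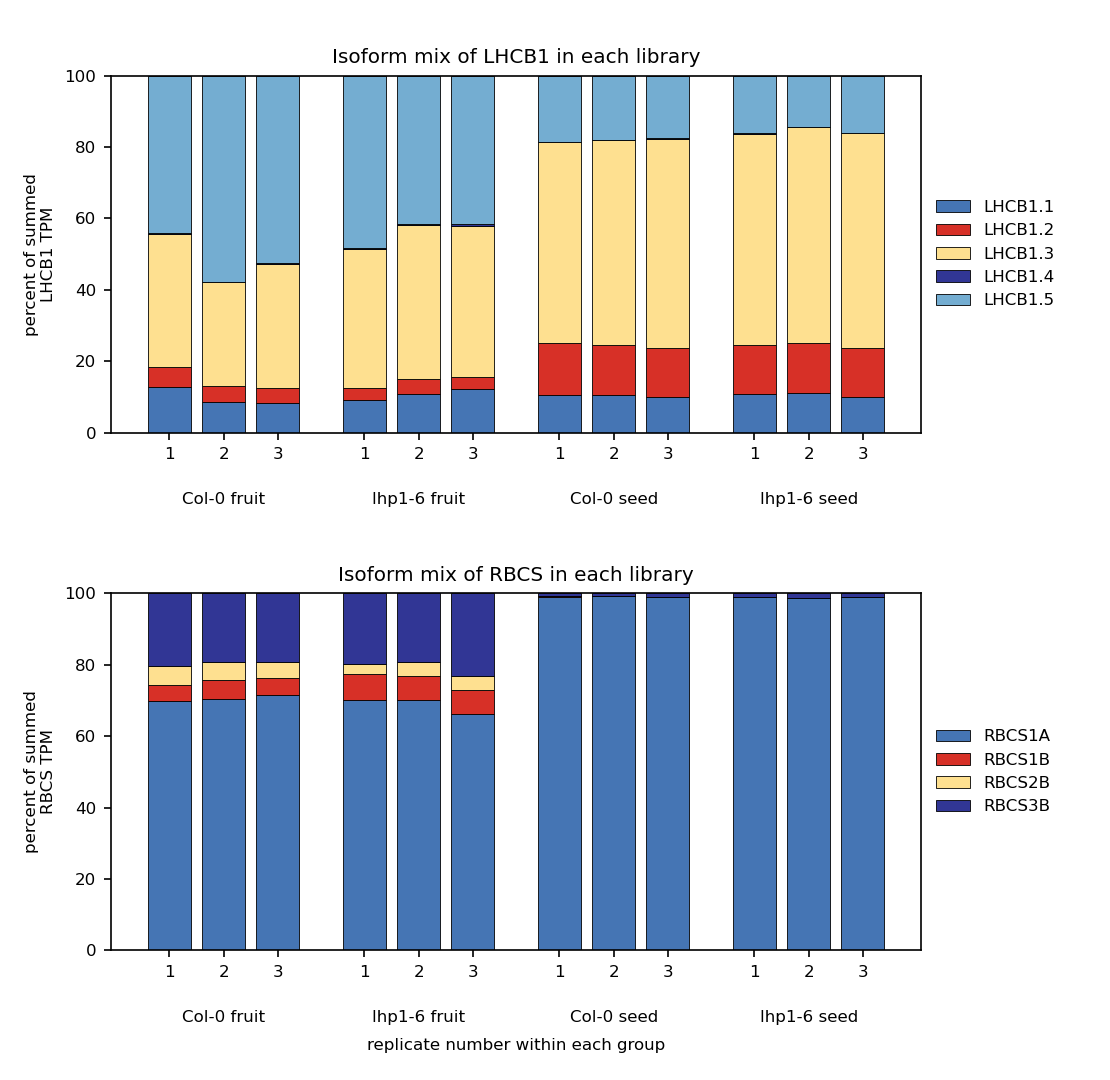
Share of each copy in the summed TPM of the LHCB1 family (top) and the RBCS family (bottom), in percent, 1 bar for each library. LHCB1.5 fills 41.6% to 57.7% of the bars in fruit and 14.4% to 18.6% in seed, and RBCS1A fills 66.2% to 71.6% in fruit and 98.6% to 99.2% in seed.

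Among the PSI subunits all 12 fell in seed of Col-0 and 9 of 12 in lhp1-6. PSAL (AT4G12800), the most abundant and part of the docking site for LHCII trimers, stood at 2507, 2324 and 2774 TPM in fruit of Col-0 and 1019, 697 and 875 TPM in Col-0 seed. The tissues did not overlap in either genotype, with -1.57 (SE 0.17, adjusted p = 9.56e-06) in Col-0 and -1.10 (SE 0.17, adjusted p = 0.000143) in lhp1-6. PSAD2 (AT1G03130) had the largest fall in Col-0, -2.004 (SE 0.17, adjusted p = 1.43e-06), where its copy PSAD1 (AT4G02770), a subunit that docks ferredoxin too, had -1.27 (SE 0.15, adjusted p = 1.51e-05). PSAE2 (AT2G20260) had the smallest, -0.41 (SE 0.14, adjusted p = 0.0204), which was not called without Col-0 fruit replicate 3 (adjusted p = 0.0863) or Col-0 seed replicate 2 (adjusted p = 0.0816). Under quantile normalisation PSAG (AT1G55670), which helps to bind the antenna, was also not called in Col-0 (adjusted p = 0.122). In lhp1-6 the changes of PSAE2, at -0.08 (SE 0.14, adjusted p = 0.625), PSAG, at -0.41 (SE 0.20, adjusted p = 0.0779), and PSAN (AT5G64040), at -0.32 (SE 0.17, adjusted p = 0.095), were not called. The fall of PSAK (AT1G30380) in lhp1-6, -0.41 (SE 0.15, adjusted p = 0.031), was lost without any 1 of 5 of the 6 lhp1-6 libraries, the exception being fruit replicate 1, with an adjusted p of 0.0520 to 0.131.

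The PSII subunits on the lumen side hold and shield the site where water is split. PSBR (AT1G79040), the most abundant of them, stood at 4789.9, 4855 and 6097 TPM in fruit of Col-0 and 1338, 1135 and 1257 TPM in Col-0 seed. It had the largest fall of the role, -2.07 (SE 0.21, adjusted p = 4.58e-06) in Col-0 and -1.65 (SE 0.21, adjusted p = 2.62e-05) in lhp1-6, with no overlap. PSBO1 (AT5G66570), PSBO2 (AT3G50820), PSBP1 (AT1G06680) and PSBQ1 (AT4G21280) fell in both genotypes, by values between 0.52 and 1.06 on the log2 scale, and the lhp1-6 call of PSBP1 was lost without lhp1-6 fruit replicate 3 (adjusted p = 0.06) and under quantile normalisation (adjusted p = 0.131). PSBQ2 (AT4G05180) was called in neither genotype, at -0.30 (SE 0.19, adjusted p = 0.154) in Col-0 and 0.29 (SE 0.19, adjusted p = 0.173) in lhp1-6. Its share of the summed PSBQ TPM was 65.3, 63.2 and 69% in Col-0 fruit and 78.4, 77.4 and 73.9% in Col-0 seed, without overlap.

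Most genes of electron transport and of the Calvin cycle, and most of the other nuclear PSI and PSII genes, were also lower in seed, which was not so for the chlorophyll synthesis and plastid-encoded lists. The background is again the 37.7% of all tested genes lower and 45.3% higher in Col-0 and the 41.1% and 39.3% in lhp1-6. Of 14 genes of electron transport and ATP synthase 12 fell in each genotype and 1 rose, FD1, a ferredoxin gene, by 0.91 in Col-0 on the log2 scale. Of 16 Calvin cycle genes 13 fell in Col-0 and 12 in lhp1-6 and none rose. CP12-2, which holds Calvin cycle enzymes in an inactive complex, had the largest fall of these, -8.04 (SE 0.13, adjusted p = 2.03e-11) in Col-0, and RCA, which encodes Rubisco activase, fell by 4.07 in Col-0. Of 11 other nuclear PSI and PSII genes 8 fell in Col-0 and 7 in lhp1-6, and 1 rose in both, PSB28. Chlorophyll synthesis was mixed, with 4 of 16 genes higher and 7 lower in Col-0 and 2 and 4 in lhp1-6. DVR rose by 1.76 and PORA fell, with -2.19 (SE 0.21, adjusted p = 3.67e-06), both in Col-0. Of 7 plastid-encoded genes 1 was called in each genotype, ATCG00020, which fell, with -1.92 (SE 0.30, adjusted p = 0.00011) in Col-0, while 4 of the 7 had a change above 0 in Col-0 and 5 in lhp1-6. The summed TPM of the 7 was only 197 to 418 in Col-0 fruit and 140 to 179 in Col-0 seed, without overlap. In lhp1-6 it was 185 to 191 in fruit and 98.2 to 267 in seed, which overlapped. All 11 clock genes fell in lhp1-6 and 10 of 11 in Col-0, and of 17 regulators 10 fell and 3 rose in Col-0, GLK1 among the latter, with 0.59 (SE 0.23, adjusted p = 0.0321). That call was lost without Col-0 fruit replicate 2 or 3 or Col-0 seed replicate 1, with median-of-ratios rescaling and in the 6 libraries alone (adjusted p = 0.0708 to 0.129).

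In fruit, lhp1-6 differed from Col-0 in few of the 40 genes. RBCS1B rose and 5 genes fell, LHCB2.1, LHCB2.2, LHCB4.3, PSAH1 (AT3G16140) and PSAN, against a background of 5.75% of all tested genes higher and 9.19% lower. Of the 40, 33 had a change below 0, with a median of -0.21 where that of all tested genes was -0.03. The groups did not overlap for 1 higher and 5 lower of the 40, beside a background of 11.3% and 15.6%. In the fit on the 6 fruit libraries alone 1 gene rose and none fell, when 7 of the 40 had an unadjusted p under 0.05. Over all tested genes that fit called 360 higher and 515 lower, where the main fit called 1146 and 1834. Without lhp1-6 fruit replicate 1 the median was -0.06 and 23 of the 40 were below 0. Without Col-0 fruit replicate 1, which had the largest estimated share of seed RNA, 32 were below 0 with a median of -0.19, and LHCB2.2 was not called. In that run 2819 of all 19823 tested genes were called higher and 2822 lower, a larger background than in the main fit. With the estimated seed RNA taken off fruit, 2291 of 20007 were called higher and 2493 lower. Without Col-0 fruit replicate 3 there were 3 falls, without lhp1-6 fruit replicate 1 there were 3, and without lhp1-6 fruit replicate 2 there were 2. The falls over all tested genes in these runs numbered 1144, 1649 and 1069. In lhp1-6 fruit the summed TPM of the storage and oil body genes was 7076 to 10699.5, above the 339 to 3244 of Col-0 fruit, with 8 of 11 called higher. Of 5 senescence markers 3 fell (NAP, NAC092 and WRKY53). The summed TPM of all 5, which include SAG12 and SAG13, overlapped, at 432 to 931 in Col-0 fruit and 324 to 982 in lhp1-6 fruit. The part of these markers in the result was not tested.

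RBCS1B stood at 405, 469 and 351 TPM in fruit of Col-0 and at 644, 715 and 808 TPM in fruit of lhp1-6. All 3 lhp1-6 libraries were above all 3 Col-0 libraries, a rise of 0.82 (SE 0.15, adjusted p = 0.00609) that was called under each of the 19 alternatives run. RBCS3B, with which it shares windows, was at 1855, 1649 and 1393 TPM in Col-0 and 1809, 2064 and 2776 TPM in lhp1-6. Those groups overlapped and the change of 0.43 (SE 0.19, adjusted p = 0.159) was not called. RBCS1A was at 6392, 6046 and 5203 TPM and 6378, 7564 and 7921 TPM, with 0.31 (SE 0.27, adjusted p = 0.49). RBCS2B was at 492, 429 and 322 TPM and 254, 432 and 463 TPM, with -0.14 (SE 0.21, adjusted p = 0.723). The share of RBCS1B in the family was 4.43, 5.46 and 4.83% in Col-0 fruit and 7.08, 6.63 and 6.75% in lhp1-6 fruit, without overlap, and that of RBCS2B was 5.39, 4.99 and 4.42% and 2.8, 4.01 and 3.87%.

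The LHCB2 genes were the antenna genes with the largest differences. LHCB2.1 stood at 3035, 1898 and 2368 TPM in fruit of Col-0 and 1019, 1398 and 1506 TPM in fruit of lhp1-6. The genotypes did not overlap, and the fall was -0.89 (SE 0.20, adjusted p = 0.0137), lost in the fit on the 6 fruit libraries alone (adjusted p = 0.121). LHCB2.2 stood at 1176, 527 and 877 TPM and 280.2, 476 and 537 TPM. Here Col-0 replicate 2 lay just below the highest lhp1-6 library, and the fall of -0.97 (SE 0.29, adjusted p = 0.0489) was lost under 16 of 19 alternatives, among them without any 1 fruit library except Col-0 replicate 2 (adjusted p = 0.0529 to 0.137). LHCB2.3 was at 128, 30.9 and 55.6 TPM and 10.8, 25.6 and 33.9 TPM, with -1.47 (SE 0.48, adjusted p = 0.0656). The 5 LHCB1 genes and LHCB3 were not called, with changes from -0.46 to 0.24.

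LHCB4.3, a variant of the minor antenna protein LHCB4, was at 369, 489 and 338 TPM in fruit of Col-0 and 309.8, 202 and 267 TPM in fruit of lhp1-6. The groups did not overlap, and the fall was -0.62 (SE 0.17, adjusted p = 0.0338). Without Col-0 fruit replicate 2 its adjusted p was 0.107, without lhp1-6 fruit replicate 2 0.117 and without lhp1-6 fruit replicate 3 0.072. LHCB4.1 made up 53, 53.4 and 52% of LHCB4 in Col-0 fruit and 62.4, 62.6 and 61.6% in lhp1-6 fruit, without overlap. LHCB5, the most abundant of the role, was not called, at -0.11 (SE 0.19, adjusted p = 0.749). None of the 4 PSI antenna genes was called, and LHCA4 was at -0.25 (SE 0.22, adjusted p = 0.507).

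All 12 PSI subunit genes had a change below 0 in lhp1-6 fruit, and 2 of them fell. PSAH1, a subunit at the docking site for LHCII, was at 676, 673 and 752 TPM in fruit of Col-0 and 453, 457 and 546 TPM in fruit of lhp1-6. Every lhp1-6 library lay below every Col-0 library, with -0.53 (SE 0.11, adjusted p = 0.011), lost in the fit on the 6 libraries alone (adjusted p = 0.0789). PSAN, a PSI subunit on the lumen side, was at 754, 556 and 756 TPM and 365, 397 and 547 TPM. Its groups stood apart by a few TPM, with -0.67 (SE 0.17, adjusted p = 0.024), and the call was lost without Col-0 replicate 3 (adjusted p = 0.0813), lhp1-6 replicate 1 (adjusted p = 0.0732) or lhp1-6 replicate 2 (adjusted p = 0.0859). PSAL was at -0.32 (SE 0.17, adjusted p = 0.255), with no overlap but no call. The share of PSAH1 in PSAH was 45.1, 47.7 and 45.8% in Col-0 fruit and 42.8, 39.1 and 40.6% in lhp1-6 fruit.

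On the oxygen-evolving side no gene was called. PSBR was at -0.21 (SE 0.21, adjusted p = 0.557). PSBO2 was the 1 of the 6 with a change above 0, at 0.24 (SE 0.16, adjusted p = 0.335), with 598, 491 and 642 TPM in fruit of Col-0 and 537, 757 and 772 TPM in fruit of lhp1-6, which overlapped. As a share of its pair with PSBO1, the other gene for the manganese-stabilising protein, it was 19.8, 18.4 and 19.3% in Col-0 against 23.6, 25.5 and 23.5% in lhp1-6. These shares did not overlap, as was the case for 10 of the 25 shares in fruit.

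Several regulators and clock genes differed in lhp1-6 fruit, where 5.75% of all tested genes were called higher and 9.19% lower. Of 17 regulators 4 fell and none rose, GNC, with -0.97 (SE 0.16, adjusted p = 0.00368), and SIG5, with -0.75 (SE 0.13, adjusted p = 0.00426), having the smallest adjusted p. GLK1 and GLK2, which activate antenna and chlorophyll genes, were not called, at 0.08 (SE 0.23, adjusted p = 0.854) and -0.33 (SE 0.13, adjusted p = 0.128). Among the 11 clock genes there were 4 falls and 3 rises, CCA1 with -1.24 (SE 0.16, adjusted p = 0.000721) and LHY with -1.55 (SE 0.22, adjusted p = 0.0013) on the lower side and LUX with 0.83 (SE 0.08, adjusted p = 0.000126) on the higher. ELIP1, a stress-induced relative of the antenna proteins, fell, with -2.23 (SE 0.31, adjusted p = 0.00126). Of the chlorophyll synthesis genes 1 of 16 rose, CHLI1, and 2 fell, CHLH and CAO, which is near the shares over all tested genes. These 3 calls were lost under 7 to 9 of 19 alternatives (adjusted p = 0.0501 to 0.182), among them without Col-0 fruit replicate 3, and that of SIG5 was lost in the 6 libraries alone (adjusted p = 0.0618), while GNC, CCA1, LHY, LUX and ELIP1 were called under all 19. None of the 16 Calvin cycle genes, the 11 other PSI and PSII genes or the 7 plastid-encoded genes was called, when 1, 3 and 0 of them had an unadjusted p under 0.05.

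**Figure D4:**
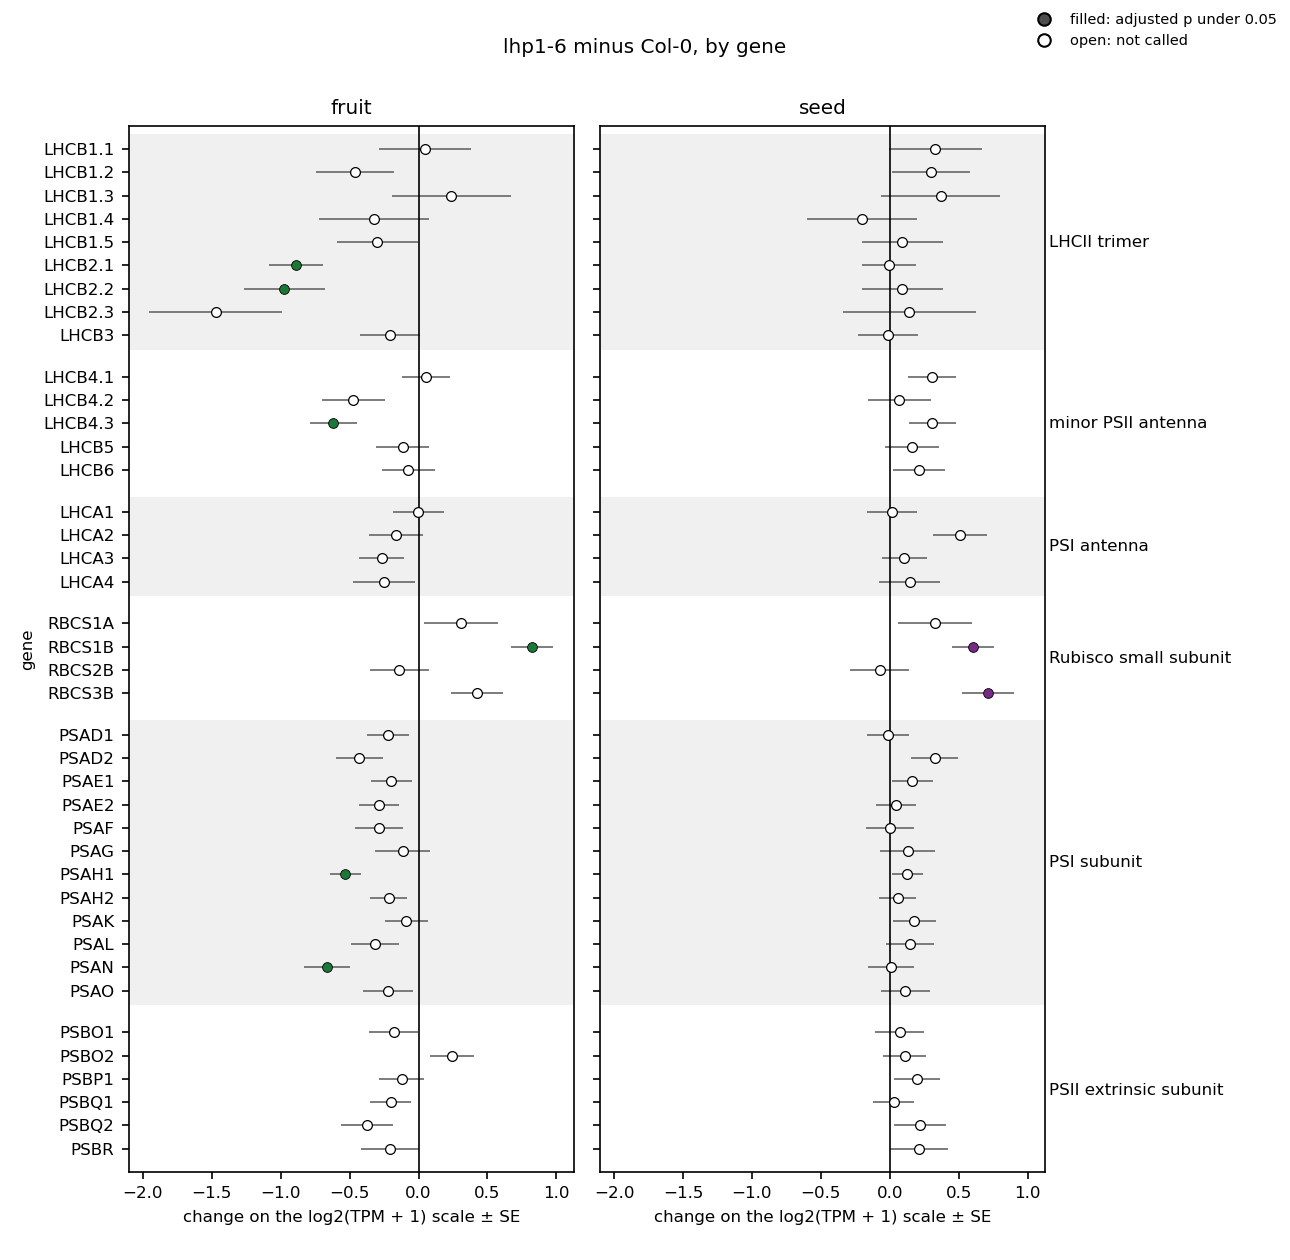
Difference of lhp1-6 from Col-0 of each of the 40 genes in fruit (left) and seed (right), on the log2(TPM + 1) scale, with the SE of the fit over 3 libraries a group; filled points have an adjusted p under 0.05. In fruit 33 points lie below 0 and in seed 35 lie above 0, few of them called, with RBCS1B filled on the right in both.

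In seed the differences between the genotypes were small and mostly above 0. RBCS1B and RBCS3B rose in lhp1-6 and no gene fell, against a background of 1.85% of all tested genes higher and 10.2% lower. Of the 40, 35 had a change above 0, with a median of 0.14, where the median of all tested genes was -0.15. After median-of-ratios rescaling the median of all genes was 0, the calls over all genes went from 369 higher and 2041 lower to 475 and 529, and 38 of the 40 were above 0 with a median of 0.31. After quantile normalisation 27 were above 0 with a median of 0.08, and without Col-0 seed replicate 2 there were 26 with a median of 0.03. Of the 40, 16 had all lhp1-6 seed libraries above all Col-0 seed libraries, where the background was 6.71%, against 41.5% with the reverse, which none of the 40 showed. The summed TPM of storage and oil body genes was 8262 to 14841 in Col-0 seed and 40635 to 112144 in lhp1-6 seed, with 6 of 11 called higher, and 3 of 6 seed coat genes fell; their part in the result was not tested.

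RBCS3B stood at 26.1, 19.1 and 28.4 TPM in Col-0 seed and 36.7, 46.7 and 37.9 TPM in lhp1-6 seed. All lhp1-6 libraries were above all Col-0 libraries, with 0.71 (SE 0.19, adjusted p = 0.036). RBCS1B stood at 3.81, 2.53 and 4.12 TPM and 6.08, 4.98 and 6.22 TPM, also without overlap, with 0.60 (SE 0.15, adjusted p = 0.0319). These are low levels, and the call of RBCS1B was lost at a pseudocount of 5 (adjusted p = 0.0859). Both calls depended on single libraries: without Col-0 seed replicate 1, 2 or 3, or lhp1-6 seed replicate 1 or 3, neither was called, and without lhp1-6 seed replicate 2 RBCS1B alone was, the adjusted p of the lost calls being 0.0509 to 0.132. With the replicate number as a block shared by both genotypes, a tie the labels do not state, the adjusted p was 0.0509 for RBCS1B and 0.0615 for RBCS3B. RBCS1A, the abundant copy, was at 3401, 2742 and 3109 TPM and 3882, 3731 and 3952 TPM. Its groups did not overlap but the change of 0.33 (SE 0.27, adjusted p = 0.444) was not called.

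None of the other 38 genes was called in seed. Among the most abundant of each role, LHCB1.3 was at 0.37 (SE 0.43, adjusted p = 0.605), LHCB5 at 0.16 (SE 0.19, adjusted p = 0.614), LHCA4 at 0.14 (SE 0.22, adjusted p = 0.71), PSAL at 0.14 (SE 0.17, adjusted p = 0.615) and PSBR at 0.21 (SE 0.21, adjusted p = 0.527). LHCA2 had the smallest adjusted p of these genes, at 581, 472 and 556 TPM in Col-0 seed and 763, 711 and 809 TPM in lhp1-6 seed. Its groups did not overlap, with 0.51 (SE 0.20, adjusted p = 0.113). LHCB4.1 stood at 984, 824 and 966 TPM and 1142, 1137 and 1140.4 TPM, with 0.31 (SE 0.17, adjusted p = 0.267). The 5 genes with a change below 0 were LHCB1.4, LHCB2.1, LHCB3, RBCS2B and PSAD1, with changes between -0.20 and 0. In the share of its family LHCB1.5 was lower in each lhp1-6 seed library, 16.2, 14.4 and 16%, than in each Col-0 seed library, 18.6, 18 and 17.5%. PSAD2 was higher, with 22.8, 21.4 and 23.9% of PSAD in lhp1-6 seed and 18, 19 and 19.5% in Col-0 seed.

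Few genes of the other lists were called in seed, where 1.85% of all tested genes were called higher and 10.2% lower. CP12-1 of the Calvin cycle and PETC, the Rieske protein of the cytochrome complex, rose, with 0.50 (SE 0.14, adjusted p = 0.0405) and 0.39 (SE 0.10, adjusted p = 0.0351). PORC, a light-dependent chlorophyll synthesis enzyme, fell, with -0.60 (SE 0.13, adjusted p = 0.0172), and so did LHCB7, with -0.38 (SE 0.10, adjusted p = 0.0325). Of 17 regulators 3 rose, BBX21 and PIF4 among them, and 1 fell, GNC, with -0.68 (SE 0.16, adjusted p = 0.0263). GLK1 was at 0.15 (SE 0.23, adjusted p = 0.703) and GLK2 at -0.06 (SE 0.13, adjusted p = 0.817). Of 11 clock genes 3 fell and none rose, among them CCA1, with -0.72 (SE 0.16, adjusted p = 0.0184), and LHY, with -0.93 (SE 0.22, adjusted p = 0.0236). ELIP1 fell, with -1.57 (SE 0.31, adjusted p = 0.0121), a call made under all 19 alternatives. The calls of the other 9 genes, from CP12-1 to LHY, were each lost under 3 to 9 of the 19, and when any 1 of 3 to 6 seed libraries was left out. For PIF4, with 0.62 (SE 0.14, adjusted p = 0.0206), these were Col-0 seed replicates 1 and 3 and lhp1-6 seed replicates 1 and 3 (adjusted p = 0.0535 to 0.0919), and at a pseudocount of 5 its change was 0.20 (adjusted p = 0.232). The calls of LHCB7, PORC, GNC, CCA1 and LHY were also lost with median-of-ratios rescaling and quantile normalisation. Over the 9 genes the adjusted p of the lost calls was 0.0501 to 0.270.

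The difference of the lhp1-6 effects between seed and fruit, tested as an interaction, was above 0 for 38 of the 40 genes, with a median of 0.31 where that of all tested genes was -0.14. Without lhp1-6 fruit replicate 1 it was above 0 for 31, with a median of 0.17. It was called for 2, PSAH1 and LHCB4.3, against a background of 1.72% of all tested genes above 0 and 3.8% below. PSAH1 stood at 296, 233 and 249.96 TPM in Col-0 seed and 281, 271 and 294 TPM in lhp1-6 seed, overlapping groups, where in fruit it fell. The difference of its effects was 0.66 (SE 0.16, adjusted p = 0.0397). LHCB4.3 stood at 232, 214 and 208 TPM in Col-0 seed and 298, 243 and 272 TPM in lhp1-6 seed, with a difference of 0.93 (SE 0.24, adjusted p = 0.0497). With the replicate number within each genotype as a block neither was called, PSAH1 at an adjusted p of 0.0797 and LHCB4.3 at 0.0539. Both calls also depended on the libraries: without any 1 of Col-0 fruit replicate 2, Col-0 seed replicates 2 and 3, lhp1-6 fruit replicate 2 and lhp1-6 seed replicates 1 and 3, neither was called. For RBCS1B, called in both tissues, the difference of its effects was -0.22 (SE 0.22, adjusted p = 0.584), and for LHCB2.1, called in fruit, 0.89 (SE 0.28, adjusted p = 0.092).

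Within a group the 40 genes moved together between libraries. In lhp1-6 fruit replicate 1 was the lowest of the 3 libraries for 39 of the 40 genes and replicate 3 the highest for 38, when replicate 1 was the lowest for 31.0% and replicate 3 the highest for 24.1% of all tested genes. In Col-0 fruit replicate 2 was the lowest for 34, against 29.4% of all tested genes. In Col-0 seed replicate 2 was the lowest for 39, against 29.7%, and replicate 1 the highest for 32, against 32.4%. In lhp1-6 seed replicate 2 was the lowest for 28 of the 40 and for 22.1% of all tested genes. That library was the highest for 54.9% of all tested genes. The median coefficient of variation of the 40 genes was 14.3% in Col-0 fruit, 20.6% in lhp1-6 fruit, 11.1% in Col-0 seed and 4.43% in lhp1-6 seed. That of all genes with a mean over 100 TPM was 13.3%, 9.72%, 5.24% and 7.12%. The 40 genes are not independent of each other in these libraries, so a count of genes on 1 side of 0 cannot be read as that many separate observations.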

How the data were processed

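RNA of dissected fruits and seeds was read on DNBSEQ as paired reads of 100 bases, per the labels' protocols. The authors deposited 1 table of TPM, transcripts scaled to length and library total, for each of the 12 libraries. Per the submitters' processing notes, cutadapt 1.9.1, STAR 2.5 and featureCounts were used with the TAIR10 build; how multi-mapping reads and strand were treated is not given in the sources used here. Read depth cannot be recovered from TPM. The listed TPM of a library summed to 977751 to 986706. No gene above 0 had the same value in any pair of libraries.

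From the deposited TPM, log2(TPM + 1) was taken, genes that reached 1 TPM in fewer than 3 libraries were left out, and limma 3.58.1 in R 4.3.3 was fitted with a mean trend on all 12 libraries and 4 groups, checked on simulated data. Contrasts were seed against fruit in each genotype, lhp1-6 against Col-0 in each tissue, and their difference. Groups follow the sample labels. The alternatives were other pseudocounts (0.1 and 5), filters, scalings, array weights, robust moderation, no trend, the 6 libraries of a comparison alone, a replicate block, subtraction of the seed RNA estimated in fruit libraries, and each library left out in turn. The labels do not state whether replicate numbers pair fruit and seed of a genotype, and the main fit used no block. In the comparisons of the genotypes the replicate block was an effect of the number shared by both genotypes. For seed against fruit and for the difference of the effects it was the number within each genotype. The labels state neither tie. Deviations of same-numbered fruit and seed libraries correlated at 0.192, 0.113 and 0.185 for Col-0 and at 0.311, 0.202 and 0.128 for lhp1-6. Other-numbered ones correlated at -0.245 to 0.0585. Each same-numbered value thus lay above every other-numbered one. Libraries of different genotype, another kind of pair, reached 0.421. Whether the libraries are paired was not tested and is not settled here. Shares and sums are percent of the deposited TPM. Promoters, coding identity and motifs were computed from TAIR10.1 with Python 3.11.15, pandas 2.3.3 and Biopython 1.88; coding identity replaces a planned comparison of proteins. Figures were drawn with matplotlib 3.10.9.

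The 40 genes and the gene lists were chosen with earlier results of these data known. Named are the 3 genes with the smallest adjusted p in each direction of a comparison, the gene of each role with the highest mean TPM, and genes that go against their role; in the lists, the called genes with the smallest adjusted p. Other genes named with values were chosen after these were seen.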

Additional observations from a re-analysis of the deposited data

Results flagged for a closer look

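The effect of lhp1-6 differed between seed and fruit by a test of the difference itself (limma, adjusted over all tested genes) for 2 of the 40 genes and 3 regulators or clock genes. For LHCB4.3, of the minor PSII antenna, the effect in seed exceeded that in fruit by 0.93 on the log2 scale (adjusted p = 0.0497). For PSAH1, of PSI, it did by 0.66 (adjusted p = 0.0397). For PIF4, a growth-promoting transcription factor that antagonises light signalling, the difference was 1.098 (adjusted p = 0.0127), and for its relative PIF1 it was 1.11 (adjusted p = 0.0317). For LUX, of the evening complex of the clock, it was -0.72 (adjusted p = 0.00671), where LUX was called higher in fruit and was not called in seed. With the replicate number within each genotype as a block the adjusted p was 0.0797 for PSAH1, 0.0539 for LHCB4.3 and 0.0811 for PIF1. PIF1 was also not called without Col-0 fruit replicate 3 (adjusted p = 0.0621), lhp1-6 fruit replicate 1 (adjusted p = 0.0596), any 1 of the Col-0 seed replicates, or lhp1-6 seed replicate 1 or 3 (adjusted p = 0.0688 to 0.0902).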

How the results depend on the processing

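Of the 35 tissue calls in Col-0, 31 held under every alternative tried, as did 26 of 31 in lhp1-6. Of the genotype calls 1 of 6 held in fruit, 0 of 2 in seed and 0 of 2 for the difference of the effects. Leaving out 1 library at a time, the falls from fruit to seed numbered 33 to 36 in Col-0 and 26 to 32 in lhp1-6, and the rises 0 to 1 and 1 to 2. In fruit, lhp1-6 had 1 rise and 2 to 5 falls, and in seed 0 to 1 rises. Over all tested genes these runs gave 702 to 2819 rises and 1058 to 2822 falls in fruit, and 118 to 392 rises in seed. The difference was called for 0 to 2 genes. Over all tested genes these runs called it above 0 for 141 to 1060 and below 0 for 282 to 2928. In fruit the 6 libraries alone gave 0 falls and array weights 3. Over all tested genes the falls in fruit numbered 1834 in the main fit, 515 in the 6 libraries alone and 2010 with array weights. In seed the 6 libraries alone gave 4 rises, array weights 7, a pseudocount of 5 gave 1 and the replicate block 0, with 4 genes at an unadjusted p under 0.05 in limma. Over all tested genes the rises in seed numbered 369 in the main fit, 730 in the 6 libraries alone and 1258 with array weights. At a pseudocount of 5 they numbered 369, and with the replicate block 336. The difference was called for 4 genes with array weights and for 1 with the filter at 5 TPM, no filter, no mean trend, a pseudocount of 0.1, quantile normalisation or robust moderation. Array weights called it above 0 for 1155 of all tested genes and below 0 for 3059, where the main fit gave 343 and 757. Under the other settings just named, 218 to 382 of all tested genes were called above 0 and 430 to 768 below. With the replicate block the difference was called for 0 of the 40, with 8 at an unadjusted p under 0.05. Over all tested genes that fit called 169 above 0 and 328 below. The cause of these shifts was not tested. With the block the fall of LHCB2.2 in fruit was not called either (adjusted p = 0.0624); no other call of the 40 genes changed.

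Among the changes followed gene by gene, directions turned only for those that were not called. Between genotypes these were the called genes of the 40, LHCB2.3 and the named genes of the lists. Others of the 40 turned too. In fruit 7 of the 40 were above 0, and 17 without lhp1-6 fruit replicate 1. In seed 35 were above 0, and 26 without Col-0 seed replicate 2. Without 1 library, GLK1 in fruit spanned -0.052 to 0.34 (-0.052, -0.044 and -0.033 where it turned), GLK2 in seed -0.14 to 0.054, and from fruit to seed in Col-0 LHCB1.3 -0.19 to 0.25 and LHCB2.3 -0.81 to 0.19. In lhp1-6 the spans were -0.10 to 0.38 for LHCB1.3, -0.21 to 0.26 for LHCB2.2, -0.092 to 0.21 for LHCB4.3, -0.083 to 0.28 for LHCB6 and -0.19 to 0.022 for PSAE2. GLK2 in seed was 0.032 with array weights, 0.11 with median-of-ratios rescaling, 0.11 with quantile normalisation and 0.058 with the TPM rescaled without the 40 genes, organelle and storage genes. In Col-0, LHCB1.3 was -0.094 with median-of-ratios rescaling and -0.069 with quantile normalisation, and LHCB6 was 0.12 with the latter. In lhp1-6, LHCB1.3 was -0.83 with quantile normalisation and LHCB2.2 was -0.0097 with array weights.

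After subtraction of the estimated seed RNA, the fruit means of the shares were 2.80% for LHCB1.2, 71.3% for PSAE1 and 38.4% for PSBQ1 in lhp1-6, and 69.4% for RBCS1A and 70.0% for PSAE1 in Col-0. With the rescaled TPM, the summed level in lhp1-6 seed was 4.87% for the 40 genes, 2.04% for the trimeric and 0.527% for the minor PSII antenna, 0.443% for the PSI antenna, 0.455% for RBCS, 0.807% for PSI and 0.598% for PSII subunits, and in Col-0 fruit 0.797% for the minor antenna.

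The read depth of the libraries is unknown, so no counting error can be given. In data simulated for the fruit comparison, 50.7% of genes changed by 0.5 on the log2 scale were recovered, 92.5% of those changed by 1 and 93.9% of those changed by 2. Between the 2 genotypes, the correlations of same-numbered libraries were -0.246, -0.397 and 0.0604 in fruit and 0.421, -0.0293 and 0.125 in seed.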
